A study of Homo sapiens with 4 samples.

Results

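Cohesin is a ring-shaped complex with RAD21 as a core subunit. It extrudes chromatin loops in interphase and accumulates where the DNA-binding protein CTCF stops extrusion, so most strong RAD21 sites of human cells are known to be CTCF sites. Gene deserts are long stretches without protein-coding genes. Some of them carry distal enhancers of the developmental genes at their borders, and others consist largely of repeats around centromeres and on the short arms of the acrocentric chromosomes.

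The RAD21 peaks that lie in such stretches were taken from the ChIP-seq peak list of untreated wild-type HCT116 cells, a human colon carcinoma cell line. A peak was a member when its summit lay on chromosomes 1 to 22, outside every gene of the GENCODE version 44 annotation and at least 200 kb from the 5′ end of every protein-coding gene. This position rule selected 5196 of the 55201 peaks on these chromosomes and of the 56853 peaks in the whole list. The rule did not use peak height, width or sequence.

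The cells carried no modification and received no auxin. The experiment comprised 4 libraries without replicates. The others were RAD21 ChIP of the HCT116_RAD21_AID clone (mAID degron in RAD21, OsTIR1 ubiquitin ligase) before and after 6 h with 500 μM each of indole-3-acetic and α-naphthaleneacetic acid, and an Input of the auxin-treated clone. They were not analysed here. A single library gives no replicate error, so each comparison between groups of peaks is a description without a test. Intervals are 95% binomial intervals (Wilson for shares, order statistics for medians) and cover counting error only, since reads without molecular identifiers are not independent molecules. Where a consensus was found at 0 members, the upper limit given is 3 divided by their number, not a Wilson limit.

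The sequences at the summits show the kinds of site that the list holds. Each window below is the GRCh38 reference from 50 bp before to 50 bp after the summit. Capitals mark the 12-letter CTCF consensus, exact or with 1 mismatch as stated. The first 3 windows come from the 10 members with the highest fold enrichment (ChIP fragments over the local background at the summit) among those with a low background.
KLF12 to TBC1D4, chr13:75219847-75219947, exact, minus strand: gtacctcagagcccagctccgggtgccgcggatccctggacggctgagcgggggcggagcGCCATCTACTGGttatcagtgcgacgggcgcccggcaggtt
TAFA5 to BRD1, chr22:49305272-49305372, exact, minus strand: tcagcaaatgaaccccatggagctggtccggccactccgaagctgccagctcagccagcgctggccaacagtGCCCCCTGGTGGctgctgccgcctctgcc
PARP8 to ISL1, chr5:50963044-50963144, 1 mismatch, plus strand: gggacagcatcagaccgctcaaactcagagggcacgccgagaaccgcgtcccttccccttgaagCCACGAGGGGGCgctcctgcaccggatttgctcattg

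The next 2 windows belong to the highest single-copy members without the consensus, even with 1 mismatch, within 50 bp of the summit.
NSG2 to MSX2, chr5:174317400-174317500: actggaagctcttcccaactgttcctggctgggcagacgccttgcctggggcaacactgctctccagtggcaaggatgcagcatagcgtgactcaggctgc
TTC8 to FOXN3, chr14:89027388-89027488: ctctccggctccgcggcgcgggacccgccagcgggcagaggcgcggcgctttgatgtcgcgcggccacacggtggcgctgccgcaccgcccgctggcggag

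The last 3 windows show the other kind of member. The first is the highest member of all, on the short arm of chromosome 21, the next has the highest local background, and the last is the widest.
Chromosome 21 short arm, chr21:8194124-8194224: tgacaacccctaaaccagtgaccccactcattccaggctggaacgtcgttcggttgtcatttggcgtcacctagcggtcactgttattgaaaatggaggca
FAM72B to H3-7, chr1:125180128-125180228: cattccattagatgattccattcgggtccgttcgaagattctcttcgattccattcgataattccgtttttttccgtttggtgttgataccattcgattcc
RPIA to AQP7B, chr2:91508922-91509022: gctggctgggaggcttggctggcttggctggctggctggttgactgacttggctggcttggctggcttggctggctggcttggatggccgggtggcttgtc

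Gene deserts held a smaller share of the RAD21 peaks than of the sequence. The territory that met the rule covered 471.1 Mb, or 17.1% of the sequence of chromosomes 1 to 22 without assembly gaps, and held 9.41% of the peaks. Its density was 11.03 peaks per Mb, against 25.7 in the remaining intergenic sequence and 10.2 inside genes at 200 kb or more from a protein-coding 5′ end. Density outside genes fell in steps with distance from the nearest protein-coding 5′ end. It was 42.5 peaks per Mb within 10 kb, 26.4 between 10 and 50 kb, 19.2 between 50 and 200 kb, 11.97 between 200 and 500 kb and 7.68 between 500 and 1000 kb. Beyond 1000 kb it was 13.3. Most of the peaks in that last class had a copied summit sequence or a raised local background. Summits whose 100 bases occur once in the assembly and whose background is below 2 times its floor are here called single-copy, low-background summits. Their density beyond 1000 kb was 3.56 per Mb, against 10.6 between 200 and 500 kb and 6.25 between 500 and 1000 kb. These densities count all sequence of each class, repeats included. Inside genes the densities of all peaks were 11.5 per Mb between 200 and 500 kb and 7.50 between 500 and 1000 kb, close to those outside. Beyond 1000 kb the density inside genes was 8.07 per Mb for all peaks and 5.26 for single-copy, low-background peaks.

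**Figure D1:**
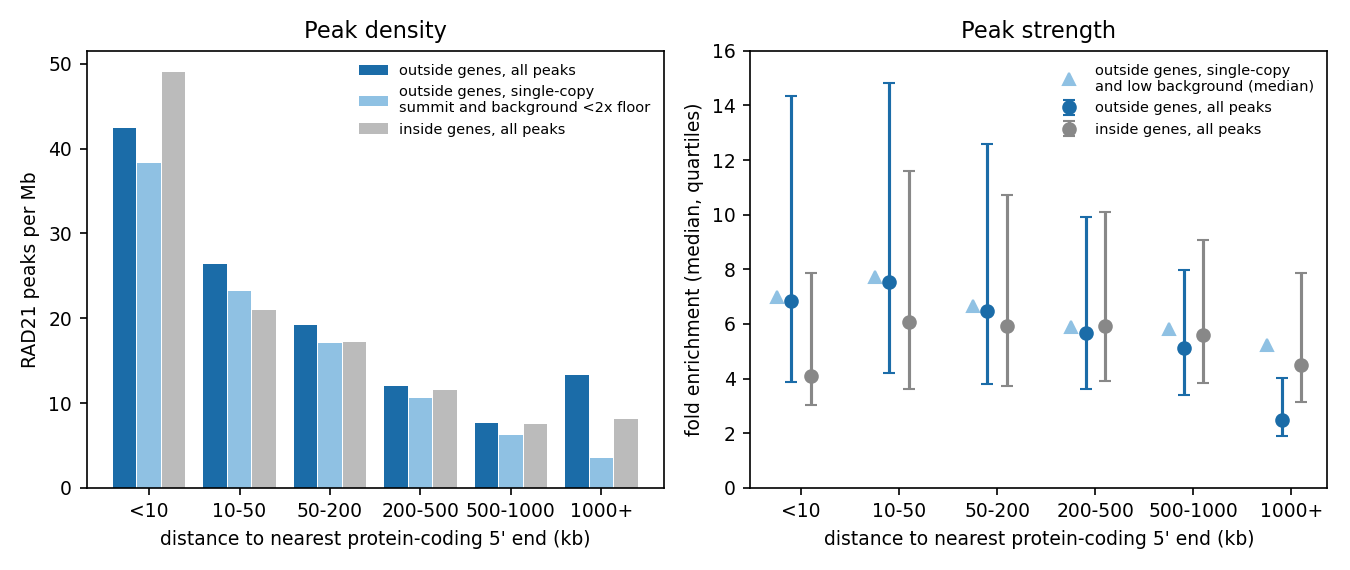
Left, RAD21 peaks per Mb (bars) by distance to the nearest protein-coding 5′ end in kb, outside and inside genes, and for single-copy, low-background peaks outside genes. Right, median fold enrichment (points) with quartiles (bars) for the same classes, where peaks outside genes beyond 1000 kb have a median of 2.49 but 5.23 (triangle) for the single-copy, low-background peaks.

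The members fell into 2 kinds by where they lay. The sequence between neighbouring protein-coding 5′ ends, called a stretch here, was divided by whether it held an assembly gap of at least 1 kb. Many such gaps of this assembly lie at centromeres, on acrocentric short arms and at chromosome ends. Of 965 stretches with territory that met the rule, 47 held a gap. These 47 made up 20.9% of the territory and 37.0% of the members, with 1925 members at 19.5 per Mb. The 918 gap-free stretches held 3271 members at 8.78 per Mb. This division used position only, but it was chosen after the values were seen.

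The 2 kinds differed in the local background, though they overlapped. This background is the number of fragments that MACS2 expects from the Input at the summit, with a genome-wide floor of 5.90. The background reached 2 times the floor at 1140 members (21.9%), against 8.07% of all peaks on chromosomes 1 to 22. This share was 53.4% (51.2 to 55.6%) in stretches with a gap and 3.42% (2.85 to 4.10%) in gap-free stretches. The background reached 10 times the floor at 341 members (6.56%), against 0.837% of all peaks, and 338 of these members lay in stretches with a gap. The members made up 73.8% of all 462 such peaks on these chromosomes. For 1467 members (28.2%), the summit 100-mer occurred elsewhere in the assembly as well, against 6.47% of all peaks. In gap-free stretches this share was 2.69% (2.19 to 3.30%), and in stretches with a gap 71.6% (69.6 to 73.6%). The methods name no removal of multiply mapped reads or of repeat regions before peak calling, and the part of either in these peaks was not tested.

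**Figure D2:**
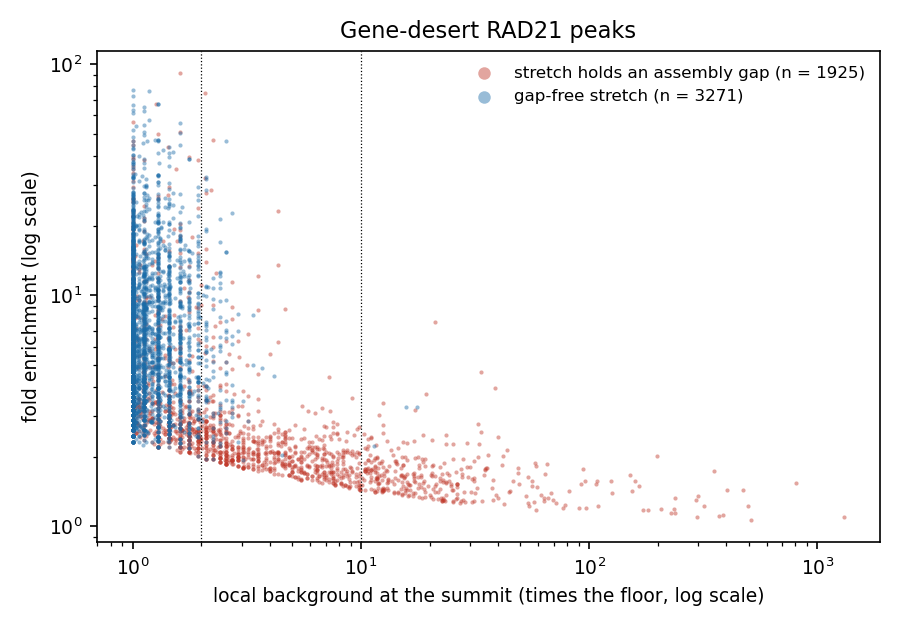
Fold enrichment of each of the 5196 members (log scale) against its local background in times the floor (log scale), with dotted lines at 2 and 10 times the floor. Members of gap-free stretches (blue) gather at the floor with fold enrichments up to 77.5. Members of stretches with an assembly gap (red) have a median of 2.48, reach 91.3 and spread to 1312 times the floor. At 10 times the floor or more, the red members have quartiles of 1.41 and 1.80.

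Gene-desert peaks were lower than other intergenic peaks. The median fold enrichment of the members was 4.35 (4.203 to 4.45) with quartiles of 2.70 and 7.78, against 6.95 (6.81 to 7.08) for the 15079 other intergenic peaks and 5.60 for all peaks on chromosomes 1 to 22. In gap-free stretches the median was 5.80 (5.65 to 5.94), the same as the 5.80 (5.63 to 5.94) of the 4296 genic peaks at 200 kb or more. In stretches with a gap it was 2.48 (2.42 to 2.54). A fold enrichment of at least 10 was reached by 903 members (17.4%), against 27.4% of all peaks. This share was 23.2% (21.8 to 24.7%) in gap-free stretches, 7.43% (6.34 to 8.69%) in stretches with a gap and 35.9% (35.2 to 36.7%) among other intergenic peaks. At least 20 was reached by 241 members (4.64%), against 9.92% of all peaks. At the other end, 586 members (11.3%) lay below 2, against 1.36% of all peaks, and 583 of them were in stretches with a gap.

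In fragments and width the gap-free members lay below other intergenic peaks. They had a median of 45 ChIP fragments at the summit, with quartiles of 29 and 76.5, against 61 for other intergenic peaks. The weakest members had 15 fragments, which is also the lowest number in the other groups. The median width was 402 bp in gap-free stretches, 399 bp in stretches with a gap and 480 bp for other intergenic peaks. A width of at least 1000 bp was found for 168 members (3.23%), against 5.09% of all peaks.

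**Figure D3:**
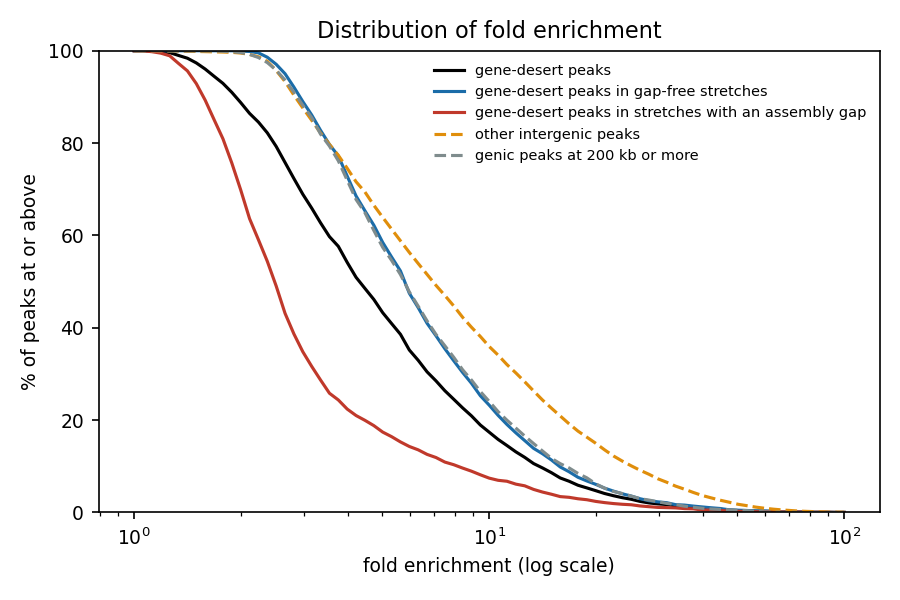
Percent of peaks (vertical axis) with a fold enrichment at or above the value on the horizontal log axis, for the members, both kinds of members, other intergenic peaks and genic peaks at 200 kb or more. The curve of members in gap-free stretches runs close to that of distant genic peaks, with medians of 5.80 each, and below that of other intergenic peaks with a median of 6.95.

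Within gap-free stretches, the median height stayed between 5.40 and 5.97 up to 2000 kb from genes, while the share of high peaks was lower farther out. The median fold enrichment was 5.97 (5.67 to 6.48) for 1117 members between 200 and 300 kb from a protein-coding 5′ end, 5.65 (5.42 to 5.92) for 1042 between 300 and 500 kb, 5.79 (5.51 to 5.95) for 784 between 500 and 1000 kb and 5.40 (5.07 to 6.23) for 318 between 1000 and 2000 kb. The share at a fold enrichment of at least 10 was 27.4% in the first class and 18.6% in the last. Beyond 2000 kb there were 10 gap-free members, with a median of 4.71 (3.04 to 12.1). Over all members the median fell from 5.71 between 200 and 300 kb to 2.16 beyond 2000 kb, where 702 of 712 members lay in stretches with a gap.

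The peaks at the limit of the rule had similar values on both sides. The 3 members nearest to it, at 200020, 200059 and 200101 bp from CDRT15L2, SDHAF3 and CLIC5, had fold enrichments of 6.09, 5.97 and 2.68. The 3 intergenic peaks just short of it, at 199954, 199910 and 199654 bp from ATP23, CA2 and CSNK1A1L, had 6.23, 2.07 and 5.36. The value of 2.07 near CA2 came with a background of 11.9 times the floor.

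CTCF consensus sequences were found at the members about as often as at other intergenic peaks of the same height, except among the lowest gap-free members. The consensus was searched on both strands within 50 bp of the summit. It was found at 469 members (9.03%, 8.28 to 9.84%), against 11.4% of all peaks on chromosomes 1 to 22. Of the windows of the same length 5 kb to either side of the members, 0.0192% held it. In gap-free stretches the share was 11.8% (10.7 to 13.0%), in stretches with a gap 4.31% (3.49 to 5.31%), at other intergenic peaks 13.2% (12.6 to 13.7%) and at distant genic peaks 11.4% (10.5 to 12.4%). When other intergenic peaks were weighted to the same classes of fold enrichment as the members, their share was 8.78%. With 1 mismatch allowed, the consensus was found at 42.4% (40.7 to 44.1%) of gap-free members and 42.8% (42.0 to 43.6%) of other intergenic peaks, against 0.459% of the windows 5 kb before the gap-free members.

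The share was higher in each higher class of fold enrichment, in the members and in other intergenic peaks. Among the members it was 0.679% (11 of 1620) at a fold enrichment below 3, 5.35% (71 of 1327) between 3 and 5, 13.2% (178 of 1346) between 5 and 10, 21.3% (141 of 662) between 10 and 20 and 28.2% (68 of 241, 22.9 to 34.2%) at 20 or more. The same classes of other intergenic peaks had 0.639%, 5.40%, 13.1%, 20.8% and 25.3% (23.5 to 27.1%). The intervals of members and other intergenic peaks overlapped in each class. Below 3, however, 1257 of the 1620 members lay in stretches with a gap, with a share of 0.0796%. The 363 gap-free members of that class had 2.75% (1.503 to 4.996%), above the interval of other intergenic peaks (0.366 to 1.11%) and close to the 2.35% (1.35 to 4.07%) of distant genic peaks. Among the 341 members whose background reached 10 times the floor, the consensus was found at 0, which allows a share of up to 0.880% (3 counts).

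**Figure D4:**
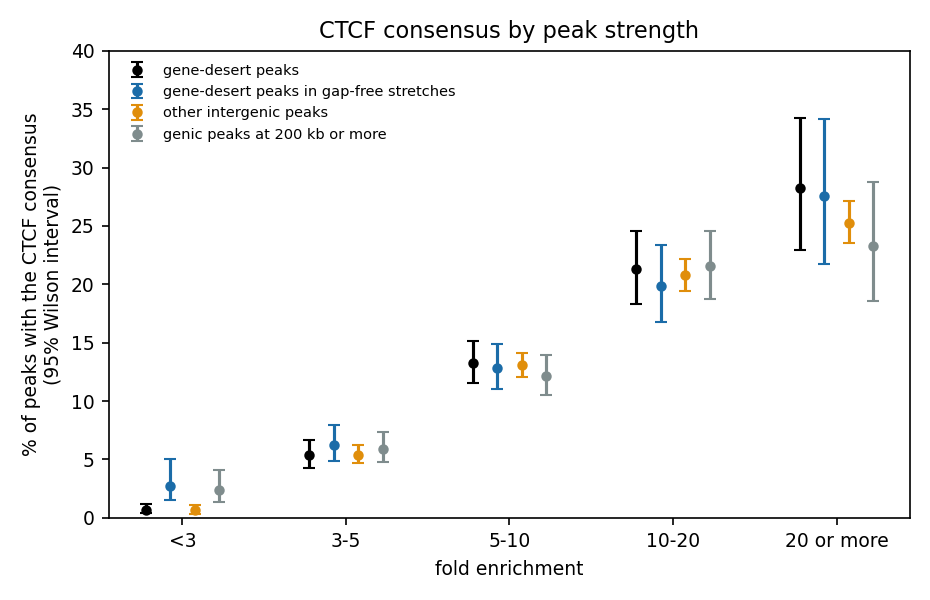
Percent of peaks with the exact CTCF consensus within 50 bp of the summit (vertical axis) by class of fold enrichment, with 95% Wilson intervals (bars), for the members, the gap-free members, other intergenic peaks and distant genic peaks. The members go from 0.679% below 3 to 28.2% at 20 or more, beside 0.639% and 25.3% for other intergenic peaks.

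The bases around gap-free summits were richer in G and C than the desert around them. Their median GC content from 50 bp before to 50 bp after the summit was 50.5%, against 39.1% in the windows 5 kb to either side. Other intergenic summits had 55.4% over flanks of 45.05%. In stretches with a gap the summits had 40.6% and the flanks 39.1%.

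The AP-1, TCF/LEF and TEAD motifs were no more frequent at gap-free summits than beside them. These belong to factors known to act at enhancers of colon carcinoma cells. Motifs were searched on both strands, and AP-1 reads the same on both. The AP-1 motif TGANTCA, bound by FOS and JUN proteins at enhancers, was found at 2.90% (2.38 to 3.54%) of gap-free members and in 3.42% of their flanking windows. It was found at 2.46% of all peaks. The TCF/LEF motif CTTTGAT, which answers Wnt signalling, stood at 0.948% (0.668 to 1.34%) against 1.88% beside them and 0.877% of all peaks. The TEAD motif CATTCCA, bound by the factors of the Hippo pathway, stood at 1.59% (1.21 to 2.08%) against 1.91% beside them and 1.45% of all peaks. In stretches with a gap this motif stood at 3.38% (2.66 to 4.28%) of summits and in 2.78% of the windows beside them. There 71.6% of summits had a copied 100-mer, and the part of repeats in this motif share was not tested. The HNF4A motif CAAAGTCCA was found at 3 of 3271 gap-free members (0.0917%), in 0.0764% of the windows beside them and at 0.111% of all peaks. The summits had more G and C than their flanks, and the part of base composition in these shares was not tested.

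Neighbouring consensus-bearing members of a stretch were compared in orientation. Of 171 such neighbouring pairs, 96 (56.1%, 48.6 to 63.4%) had the consensus on the same strand, 35 (20.5%) pointed towards each other and 40 (23.4%) away from each other. Their median spacing was 92.2 kb, 318 kb and 189 kb. Convergent CTCF sites are known as the usual anchors of cohesin loops, but other peaks can lie between these pairs, and no contact data were analysed. Of all 469 consensus-bearing members, 50.3% had it on the plus strand. Pairs of other peaks were not counted in this way, so these shares and spacings cannot be called particular to deserts.

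Gap-free members were farther from their neighbours than other intergenic peaks, and distant genic peaks largely shared this spacing. The nearest other summit of any peak lay at a median of 26868 bp from gap-free members, against 9890 bp for other intergenic peaks and 24060 bp for distant genic peaks. No other summit lay within 100 kb of 17.8% (16.5 to 19.2%) of gap-free members, against 13.5% (12.5 to 14.5%) of distant genic peaks, 1.71% (1.52 to 1.93%) of other intergenic peaks and 3.76% of all peaks. In stretches with a gap the median distance was 6818 bp.

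The 10 highest members with a background below 2 times the floor are named here. Another member, with a background of 2 to below 10 times the floor, reached 75.2. The share of all peaks on chromosomes 1 to 22 with a lower fold enrichment ran from 99.68% to 99.96% over the 10 named members. In gap-free stretches the first was the peak between KLF12 and TBC1D4 on chromosome 13, from 75219570 to 75220366, with 534 fragments over the floor of 5.90, a fold enrichment of 77.5. It lay 262272 bp from the start of TBC1D4, a Rab GTPase-activating protein of glucose transport. The second, on chromosome 5 from 50962743 to 50963613, lay 297195 bp from PARP8 in the stretch towards ISL1, a LIM homeodomain factor, with a fold enrichment of 76.0 from 603 fragments. The third, also on chromosome 5, from 174316691 to 174317884, lay between NSG2 and MSX2, a homeobox gene of skull and limb development, with 501 fragments and a fold enrichment of 72.8.

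Peaks of 67.4 each followed between TAFA5 and BRD1 on chromosome 22, from 49304640 to 49305940, and between SMOC2 and THBS2 on chromosome 6, from 168884403 to 168885227. The peak from 38355651 to 38356547 on chromosome 21, with a fold enrichment of 66.4, lay 200641 bp from KCNJ15, a potassium channel gene, in the stretch towards ERG, an ETS factor of blood and vessel cells. The peak from 115916795 to 115917740 on chromosome 12, with 65.3, lay between TBX3, a T-box factor of limb and breast development, and the Mediator gene MED13L. The peak from 101234786 to 101236182 on chromosome 14, with 63.5, lay between RTL1 and DIO3, both known as imprinted genes. None of these 8 peaks had a second exact copy of its summit 100-mer, and the background of each stayed under 2 times the floor.

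The other 2 of the 10 highest members with a low background lay on short arms of acrocentric chromosomes. The peak from 8193162 to 8194594 on chromosome 21 had 955 fragments over 1.61 times the floor, a fold enrichment of 91.3, and 3 further exact copies of its summit 100-mer in the assembly. The peak from 11285204 to 11286193 on chromosome 22 had 566 fragments and a fold enrichment of 67.1, with no further copy. Of these 10 members, 2 held the exact consensus within 50 bp of the summit, 6 held it with 1 mismatch and 2 held neither.

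The stretches with the most members held many copied summit sequences, in differing shares. The one between FAM72B and H3-7, which spans the centromere of chromosome 1, held 323 members with a median fold enrichment of 1.68 and a median background of 13.97 times the floor, and 316 of them had a copied summit 100-mer. The stretch from the start of chromosome 13 to TUBA3C held 205 members with a median of 1.90, of which 200 were copied. The stretch between SPATA31A6 and SPATA31A5 on chromosome 9 held 171 (median 2.22) and that between RPIA and AQP7B on chromosome 2 held 159 (median 2.99). The next 4 began with ZNF716 to ZNF722 on chromosome 7 with 81 members (70 copied). The short arm of chromosome 21 up to TPTE held 76 (65 copied). KCNJ18 to WSB1 on chromosome 17 held 73 (43 copied) and ZNF337 to DEFB115 on chromosome 20 held 69 (26 copied). By length, the longest stretch with a member was FAM72B to H3-7 with 22.7 Mb, most of it assembly gap or outside the rule. Also among the 5 longest was the stretch from the start of chromosome 15 to GOLGA6L6, with 60 members. Another, from the start of chromosome 14 to OR11H12, held 3. In the 8 stretches with the most members the consensus was found at between 0 and 12 members each.

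Single members of these stretches were extreme. The member with the highest background, from 125179661 to 125180361 on chromosome 1, had 8538 ChIP fragments at its summit over a background of 7741, a fold enrichment of 1.10. Another member of very high background, between CWH43 and DCUN1D4 on chromosome 4, had 3235 fragments and a fold enrichment of 1.07. The widest member, from 91504835 to 91512464 on chromosome 2, measured 7630 bp with a fold enrichment of 5.55, and the next measured 5430 bp with 1.88 and 4828 bp with 4.58. The members farthest from a protein-coding 5′ end lay up to 5502392 bp from TPTE on the short arm of chromosome 21, with fold enrichments of 4.78, 20.4 and 13.5.

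Not all members of these stretches were of this kind. Single-copy summits with a background below 2 times the floor were found at 409 members in stretches with a gap, and their median fold enrichment was 5.25 with the consensus at 14.4% (11.4 to 18.2%). In gap-free stretches 3080 members were of this kind, with a median of 5.80 and the consensus at 11.98% (10.9 to 13.2%). Together they made up 3489 members (67.1%).

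Among gap-free stretches, the one with the most members was short. Between C8orf90 and TSNARE1 on chromosome 8, over 0.889 Mb of which 0.402 Mb met the rule, lay 51 members, or 127 per Mb. Their fold enrichments ran from 2.03 to 46.6 with a median of 3.19, and 5 reached at least 10. The exact consensus was found at 0 of these members, which allows a share of up to 5.88%. Peaks of this stretch inside a gene or nearer than 200 kb lay about as densely. Their fold enrichments reached 37.2, and the consensus was rare among them as well. The next 3 stretches were longer, with fewer members per Mb. Between STIM2, a calcium sensor of the endoplasmic reticulum, and PCDH7, a protocadherin, 28 members lay over 3.86 Mb of chromosome 4 with fold enrichments from 2.61 to 27.2 and a median of 5.84. Between AGA and TENM3, a teneurin of synaptic adhesion, 26 members lay over 4.70 Mb of chromosome 4 with values from 2.75 to 32.3 and a median of 5.99. Between LRRTM1, a synaptic adhesion gene, and SUCLG1, a mitochondrial enzyme subunit, 26 members lay over 4.16 Mb of chromosome 2 with values from 2.61 to 15.6 and a median of 4.70.

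The next in order were MKI67 to MGMT on chromosome 10 with 24 members and a median of 3.75, where MKI67 encodes the proliferation marker Ki-67 and MGMT a DNA repair enzyme. VRK1 to BCL11B on chromosome 14 and ZPLD1 to ALCAM on chromosome 3 held 22 members each, with medians of 5.79 and 5.26. HS6ST1 to RAB6C on chromosome 2 held 21, with a median of 5.07. The consensus was found at between 0 and 5 members in each of these 8 stretches.

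**Figure D5:**
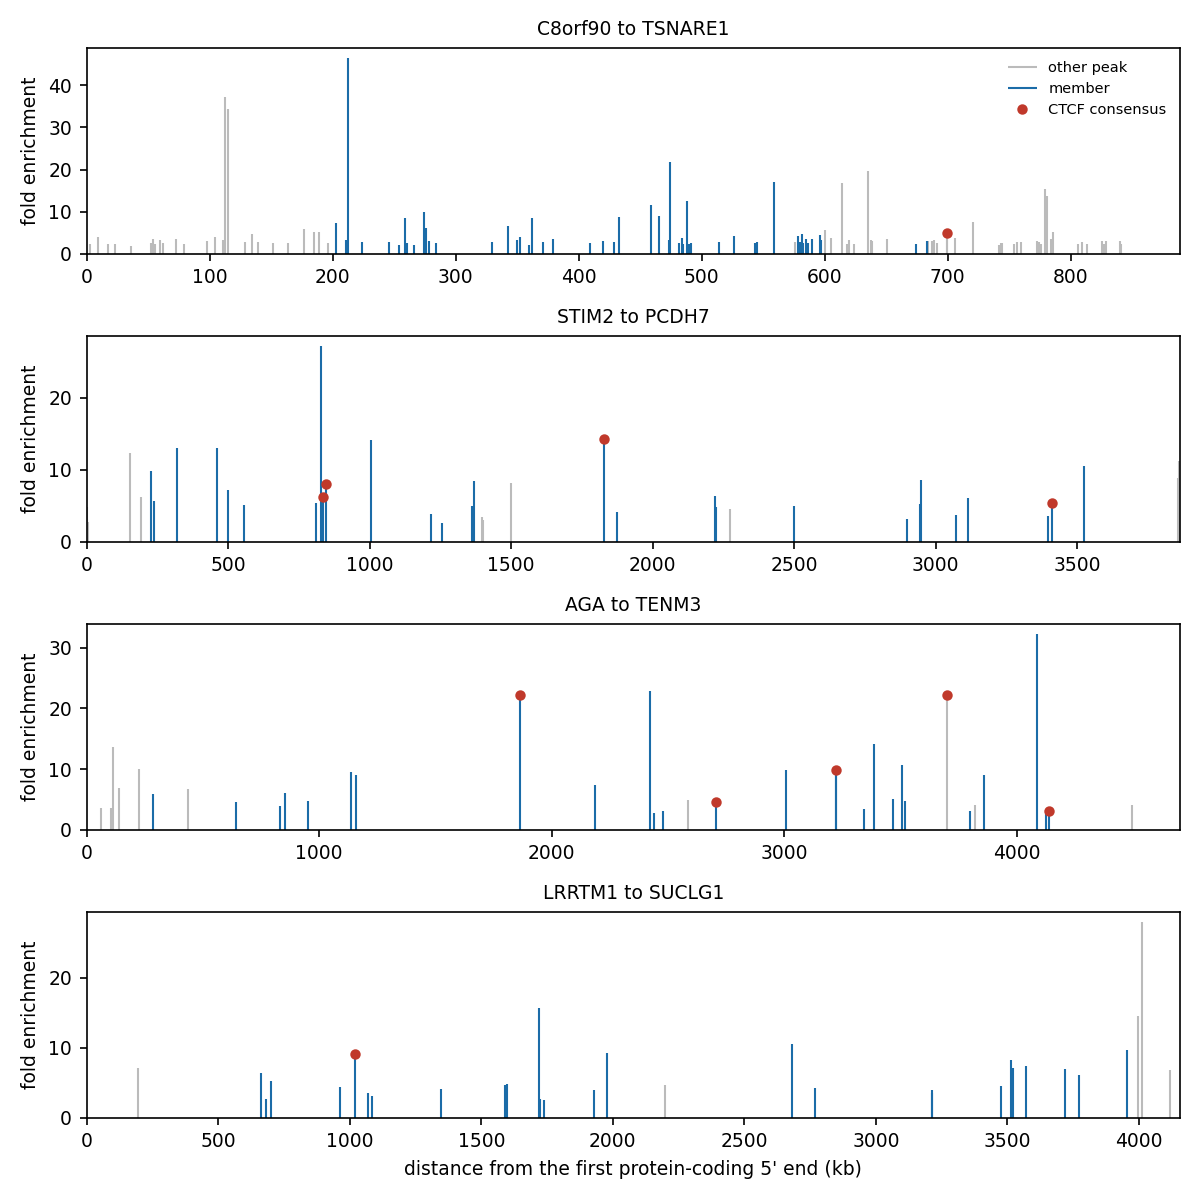
Fold enrichment (vertical lines) of RAD21 peaks along the 4 gap-free stretches with the most members, by distance in kb from the first protein-coding 5′ end. Members are blue, peaks inside a gene or nearer than 200 kb are grey, and red points mark the exact CTCF consensus; the highest members reach 46.6, 27.2, 32.3 and 15.6 from top to bottom.

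Gap-free stretches without a member were small. Of the 918 gap-free stretches, 231 held no member, and the median territory of the empty ones was 38.1 kb. The largest were HDGFL1 to NRSN1 on chromosome 6 with 0.643 Mb, CYLC2 to SMC2 on chromosome 9 with 0.501 Mb and SNTG1 to PXDNL on chromosome 8 with 0.460 Mb. Among the 96 gap-free stretches with at least 1 Mb of territory, each held a member, and the density ran from 0.586 to 20.5 per Mb with a median of 5.496.

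The density of gap-free members differed between chromosomes. It was lowest on chromosomes 21, 18 and 11, with 5.58, 5.83 and 5.88 per Mb, and highest on chromosomes 22, 17 and 20, with 26.3, 15.4 and 14.7. Chromosomes 22 and 17 contributed 2.17 and 3.58 Mb of gap-free territory. Across the 22 chromosomes, the density of gap-free members and that of all other peaks had a Spearman correlation of 0.61 and a Pearson correlation of 0.64, and the Spearman value was 0.50 without chromosomes 17 and 22. These values come from 1 library, and chromosomes differ in base composition and copy number. Members were few on gene-rich chromosome 19, where 16 peaks (0.762% of its peaks) met the rule, and many on chromosome 13, where 390 (25.9%) did. The territory of the rule took up 7.59% of the sequence of chromosome 19 and 29.0% of that of chromosome 13. Of the 390 on chromosome 13, 223 lay in stretches with a gap. The gap-free density was 6.80 per Mb on chromosome 13 and 9.40 on chromosome 19, the latter over 0.638 Mb.

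The genes that border deserts were counted by lists of names. The nearest protein-coding gene belonged to the developmental transcription factor families (SOX, PAX, FOX, TBX, IRX and others) for 226 members (4.35%, 3.83 to 4.94%), against 2.41% of all peaks on chromosomes 1 to 22 and 2.78% of other intergenic peaks. These 226 lay nearest to 58 genes, and their median fold enrichment was 4.64. TBX3 had 12 such members, with fold enrichments from 2.41 to 8.28 and a median of 4.85. FOXL1, a forkhead gene of the gut mesenchyme, had 11 with a median of 3.54, and FOXD4L5 on chromosome 9 had 20 with a median of 5.33, all 20 in stretches with a gap.

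Adhesion and synapse families (cadherins, protocadherins, contactins, teneurins and others) were nearest to 251 members (4.83%, 4.28 to 5.45%), against 1.93% of all peaks and 1.11% of other intergenic peaks. Their median fold enrichment was 5.07. Values of 10 or more were reached by 12.7% of them, by 19.5% of the members at developmental factors and by 32.1% of the 28 at colon and intestine genes, against 17.4% of all members and 27.4% of all peaks. The 28 were all gap-free, and 23.2% of all gap-free members reached 10. SOX9, FOXA2 and GATA6 are on both lists, so their members count in both shares. By number of members, the adhesion and synapse list was led by PCDH7 and CNTNAP3C with 21 each. Of these, 11 at PCDH7 and 0 at CNTNAP3C were gap-free. TENM3 with 17, LRRTM1 with 15, NCAM2 and SLITRK5 with 11 each and CSMD3 with 10 followed. At SLITRK5, 6 of the 11 were gap-free, and at TENM3, LRRTM1, NCAM2 and CSMD3 all were. Their medians lay between 4.39 (LRRTM1) and 5.80 (SLITRK5). Genes of these families are known to be long and often to stand beside large deserts, and the part of that in these shares was not tested.

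Genes of the colon and intestine list were nearest to 28 members (0.539%, 0.373 to 0.778%), against 0.399% of all peaks. The 28 lay nearest to 8 of the 30 listed genes, each in gap-free stretches, with a median fold enrichment of 5.07, and no gene of the list had 10 or more. SOX9, a factor of intestinal stem and Paneth cells, had the most, with 8 members between 344005 and 882995 bp from its start and fold enrichments from 2.43 to 12.3. MYC, a proto-oncogene and target of Wnt signalling, had 4 members between 455805 and 587413 bp away, from 2.74 to 14.5. FOXA2, a forkhead factor of endoderm, had 5 members with a median of 13.2. These 3 genes were named after their values were seen. Of the members as a whole, 1043 protein-coding genes were the nearest, and 82 of them had 10 or more.

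The term gene desert holds for protein-coding genes but not for all annotation. The median distance of gap-free members to the nearest gene of any type was 34683 bp. A gene start of any type lay within 1 kb of 196 members (3.77%), against 16.8% of all peaks. Of these, 88 lay at long non-coding RNA genes, with fold enrichments from 2.41 to 61.6 and a median of 6.16. A further 61 lay at segments of immunoglobulin and T-cell receptor genes, which the annotation does not class as protein-coding, with values from 2.45 to 31.3 and a median of 7.21. Between TMEM121 and the end of chromosome 14, where the immunoglobulin heavy chain segments lie, 56 members had a median of 9.28.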

How the data were processed

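RAD21 ChIP-seq of untreated wild-type HCT116 cells (1 library) was analysed from its deposited peak list. Per the labels and methods, the authors trimmed paired reads (Trimmomatic 0.39), aligned them to GRCh38 (Bowtie2 2.5.3, which by default keeps a single placement of a read that maps to several places), removed duplicates (Picard) and called peaks with MACS2 2.2.9.1 against Input at a q-value of 0.05, with 1 library per list. The authors' list gives a fold enrichment (a ratio with 1 added to both counts), the −log10 p-value and the −log10 q-value at each summit, and a score that was not used. The total number of reads is not in the list.

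From the deposited p-value and fold enrichment, the fragments and the local background of each summit were worked out, with whole fragments (tolerance 0.05) for all but 14 of 56853 peaks. The procedure and the motif search were tested on simulated data. Every peak ended within its hg38 reference sequence. Genes came from GENCODE version 44. Territory was counted base by base without assembly gaps, with no random placement. Exact copies of 100-mers were counted on both strands without alternate and fix sequences. Motifs were searched within 50 bp of summits and in windows 5 kb to either side.

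The members, gene lists, motifs and comparisons were chosen with earlier results of these data known. Named were the 10 highest members with a background below 2 times the floor, 3 on each side of the 200 kb limit, the 3 farthest, widest and highest in background, the 8 stretches with the most members, the 5 longest and list genes with 10 or more members. Stretches on the gap-free side, the division by assembly gaps, single-copy summits and members without a consensus were added after the values were seen. Alternatives were other distance limits, 5′ ends of all transcripts, whole peaks, other gene types, a q-value of 1e-05, a low background and other consensus searches. Software was scipy 1.17.1, numpy 2.4.6, matplotlib 3.10.9, pandas 2.3.3 and numba 0.67.0 under Python 3.11.15. The methods do not say which Input served as control, and the labels name 1 Input, from the auxin-treated clone. A member that the rule names is not reported here.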

Additional observations from a re-analysis of the deposited data

Results flagged for a closer look

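Chromosome X lies outside the rule, but 78 of its peaks met the same position criteria. This signal in data not used above came to 2.38 peaks per Mb over 32.7 Mb, with a median fold enrichment of 5.64 and the exact CTCF consensus at 23.1%. The members on chromosomes 1 to 22 had 11.03 per Mb, a median of 4.35 and the consensus at 9.03%. In gap-free stretches these values were 8.78 per Mb, 5.80 and 11.8%. Chromosomes differ in copy number, and the part of that here was not tested. The list contains no control sample for the 78 peaks.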

How the results depend on the processing

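No paired analysis was possible because the only peak list came from 1 library. The gap-free and single-copy settings were added after the data were examined. The number of members (5196) was 2767 with a limit of 500 kb and 3271 in gap-free stretches, and it stayed within 1.5 times under the other settings. The density (11.03 per Mb) was 12.4 and 10.3 with limits of 100 and 500 kb, 10.6 with 5′ ends of all transcripts, 10.7 with other gene types allowed, 8.08 at a q-value of 1e-05, 8.61 with a background below 2 times the floor, 8.78 in gap-free stretches and 7.92 with single-copy summits. In the same order of settings, the median fold enrichment (4.35) was 4.84, 3.25, 4.06, 4.64, 5.80, 5.36, 5.80 and 5.65, and the share at 10 or more (17.4%) was 21.1%, 11.02%, 15.9%, 18.9%, 23.7%, 21.4%, 23.2% and 22.6%. The share with a CTCF consensus (9.03%) was 6.94% with a limit of 500 kb, 11.98% at a q-value of 1e-05, 11.1% with a low background, 11.8% in gap-free stretches, 11.9% with single-copy summits, 31.7% with 1 mismatch and 20.3% with a looser CTCF consensus. The settings select other peaks or count more sequence by construction, and no other cause was tested. Peaks with fewer than 15 fragments at the summit are not in these groups, so weaker binding in deserts could not be measured at this depth.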

Other observations

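The density of members ran over a wide range among gap-free deserts. Among gap-free stretches with at least 1 Mb of territory, the sparsest was JRKL to CNTN5 on chromosome 11, with 1 member of fold enrichment 10.1 in 1.71 Mb of territory. MAT2B to TENM2 on chromosome 5 held 2 members, with fold enrichments of 6.81 and 13.2, in 1.60 Mb. NXPH1 to NDUFA4 on chromosome 7 held 2, with 3.91 and 6.67, in 1.19 Mb. At the dense end, TRIML1 to FRG1 near the end of the long arm of chromosome 4 held 21 members in 1.02 Mb with a median of 4.64, and HS6ST1 to RAB6C on chromosome 2 held 21 in 1.22 Mb. The longest gap-free stretch, RAG2 to LRRC4C on chromosome 11, spanned 4.86 Mb and held 10 members with values from 2.80 to 12.1, with the exact consensus at 0 of them, which allows a share of up to 30.0%. CELF4 to PIK3C3 on chromosome 18, of 4.39 Mb, also held 10 members, with values from 3.48 to 32.0 and the consensus at 3. These stretches were picked after their values were seen, and no test of the differences was made.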
